A study of Mus musculus with 18 samples.

Results

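Leukocytes that had stayed in an inflamed joint were compared with leukocytes that had stayed in inflamed skin. The comparison took the 3 joint and the 3 skin libraries whose cells the labels call nonmigrated, 6 of the 18 RNA-Seq libraries in the table, and covered every gene that passed a filter on low counts. All 6 libraries came from Kaede mice of 6 to 10 weeks, a transgenic strain whose cells carry a green protein that turns red for good under violet light. The mice had received OT-II CD45.1 CD4+ T cells that were polarized towards Th1 in vitro, were immunized with 100 µg ovalbumin in complete Freund's adjuvant, and were challenged 10 days later with 100 µg heat-aggregated ovalbumin (HAO), either in the footpad, for the joint, or in the ear pinna, for the skin. The inflamed site was exposed to violet light on day 3 after challenge, and viable CD45+ Kaede red+ cells still in the tissue 24 hours later were sorted as nonmigrated. The transferred OT-II cells carry no Kaede, so the sort took host cells. Each library was a biological replicate pooled from 8 to 18 mice, and the mice of the pools cannot be told apart.

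Site was confounded with several other properties of the libraries. The paper describes the skin libraries as a further data set, made after that of the joint, so site and data set cannot be told apart. Each burst of light was also longer for the joint than for the ear. Ankle joints and ears were both digested with collagenase D, but only the joint tissue was then homogenized in a tissue dissociator, so the site and its dissociation cannot be told apart. The joint libraries held 35554698 to 41853129 counts and the skin libraries 19602701 to 22528895, and the share of reads outside any gene was 0.293% to 0.547% in joint and 0.0925% to 0.107% in skin. A count of 3, used here as the floor of detection, was worth 0.078 to 0.0948 counts per 1000000 (CPM) in the joint libraries and 0.148 to 0.172 CPM in the skin libraries. Joint replicate 2 was the only one of the 6 with RNA from the Y chromosome (Ddx3y, 2175 counts) and had 46 counts of Xist, against 8003 to 34511 Xist counts in the other 5, although the pools are described as matched for sex. Ptprc, the gene of CD45 itself, stood at 1098, 1159 and 1351 CPM in the joint libraries and 1183, 1316 and 1211 CPM in the skin libraries, and the ranges overlapped. Its log2 fold change of -0.04 ± 0.12 SE did not pass the test (edgeR adjusted p = 0.83).

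The cells compared are a mixture. In an inflamed tissue the CD45+ gate holds neutrophils, monocytes, macrophages, dendritic cells and lymphocytes, and each has marker genes of its own. Neutrophils store antimicrobial proteins in granules whose genes are transcribed in order as the cell matures in bone marrow, primary granules first and secondary and tertiary granules later, so that RNA for primary granule proteins is typical of precursors. B cells also arise in bone marrow, where precursors rearrange their receptor genes with the RAG recombinase. Interferons act on nearly all cells: type I interferons signal to the interferon-stimulated response element (ISRE) in promoters, and interferon gamma to the gamma-activated site (GAS). Skin also holds resident leukocytes that a joint lacks or has few of, among them Langerhans cells and gamma delta T cells of the epidermis and dermis. Because whole pools were sequenced, fewer cells of a type and less RNA per cell cannot be told apart in any of the differences below.

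Many of the interferon-induced genes that were lower in joint than in skin cells carry these elements close to their start sites, and many others carry neither. The 7 promoters shown were taken from those with a match, to show where the matches lay. Each run gives the 150 bases before the start of the gene, 5′ to 3′ on the strand of the gene, from RefSeq on GRCm38 (mm10). Capitals mark a match, on either strand, to GAAANNGAAA (the core of the ISRE) or to TTCNNNGAA (the core of the GAS).
Ifit1, chr19:34640739-34640888, plus strand: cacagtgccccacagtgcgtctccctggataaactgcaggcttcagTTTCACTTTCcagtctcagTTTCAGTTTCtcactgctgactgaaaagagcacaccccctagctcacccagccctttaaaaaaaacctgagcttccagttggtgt
Isg15, chr4:156200819-156200968, minus strand: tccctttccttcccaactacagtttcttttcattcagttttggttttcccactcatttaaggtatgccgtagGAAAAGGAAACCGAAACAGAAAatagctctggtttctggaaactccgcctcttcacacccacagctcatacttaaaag
Rsad2, chr12:26456453-26456602, minus strand: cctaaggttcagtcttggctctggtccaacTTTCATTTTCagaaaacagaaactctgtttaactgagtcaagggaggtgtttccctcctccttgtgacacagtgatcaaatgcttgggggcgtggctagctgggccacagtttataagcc
Socs1, chr16:10785537-10785686, minus strand: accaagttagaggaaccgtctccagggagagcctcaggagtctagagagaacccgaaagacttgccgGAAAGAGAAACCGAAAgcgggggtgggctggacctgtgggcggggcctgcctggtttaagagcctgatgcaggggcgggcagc
Tgtp1, chr11:48992247-48992396, minus strand: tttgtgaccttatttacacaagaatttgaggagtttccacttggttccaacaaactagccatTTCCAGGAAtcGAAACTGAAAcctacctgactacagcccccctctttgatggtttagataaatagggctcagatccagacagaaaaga
Igtp, chr11:58199406-58199555, plus strand: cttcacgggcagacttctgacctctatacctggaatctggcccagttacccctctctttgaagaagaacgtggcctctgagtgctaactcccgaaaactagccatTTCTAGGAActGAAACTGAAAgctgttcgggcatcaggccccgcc
Irgm2, chr11:58214827-58214976, plus strand: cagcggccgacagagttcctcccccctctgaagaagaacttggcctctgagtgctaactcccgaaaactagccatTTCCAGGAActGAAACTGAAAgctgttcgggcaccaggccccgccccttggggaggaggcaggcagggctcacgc
Counted in bases from the start of the gene, the Ifit1 promoter matched the ISRE at -104 and -85 and the Rsad2 promoter at -120. Isg15 had 3 overlapping matches, at -78, -72 and -66, and Socs1 had 2, at -83 and -77. The 3 GTPase promoters shared 1 arrangement, a GAS at -88, -45 and -75 in Tgtp1, Igtp and Irgm2 followed after a gap of 2 bases by an ISRE at -77, -34 and -64, so that the 2 motifs did not overlap. In Igtp and Irgm2 the bases around the motifs were nearly the same too, so these promoters are not separate instances of the arrangement.

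Joint and skin cells differed in many genes, and more of these were lower in joint. Of 16777 genes tested with edgeR, 914 (5.45%) were higher and 1486 (8.86%) lower in joint at a Benjamini-Hochberg adjusted p under 0.05 and more than a 2-fold change, the limits that define a called gene here. The median log2 fold change over all tested genes was 0.0112. The 3 libraries of one site lay wholly above or below the other for 871 of the 914 and 1349 of the 1486, against 3057 genes wholly higher and 3309 wholly lower in joint among all 16777 tested. A fit of the 6 libraries alone, which has fewer replicates from which to estimate the spread than the main fit of 12 libraries, called 613 (3.98%) higher and 1053 (6.84%) lower of 15385, and 598 and 1038 of these were called the same way in the main fit.

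The 6 libraries did not lie equally far apart. On the first principal component, which took 70.9% of the variance, the joint libraries lay at 45.8, 49.5 and 43.6 and the skin libraries at -58.1, -65.8 and -15.0. Skin replicate 3 stood away from the other skin libraries, towards the joint libraries on the first component and at 44.2 on the second (15.5%). In 471 (51.5%) of the genes higher in joint and 1161 (78.1%) of those lower, its value lay beyond both other skin libraries, on the joint side. For some of these genes, such as Il6 and Ifng, it lay inside the joint range. Without it, 1636 (9.12%) genes were higher and 2084 (11.6%) lower of 17931, including 815 of the 914 and 1411 of the 1486. For this reason counts of the gene lists are given with and without it. The shares over all tested genes to set beside those counts are 5.45% higher and 8.86% lower, or 9.12% and 11.6% without that library.

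**Figure D1:**
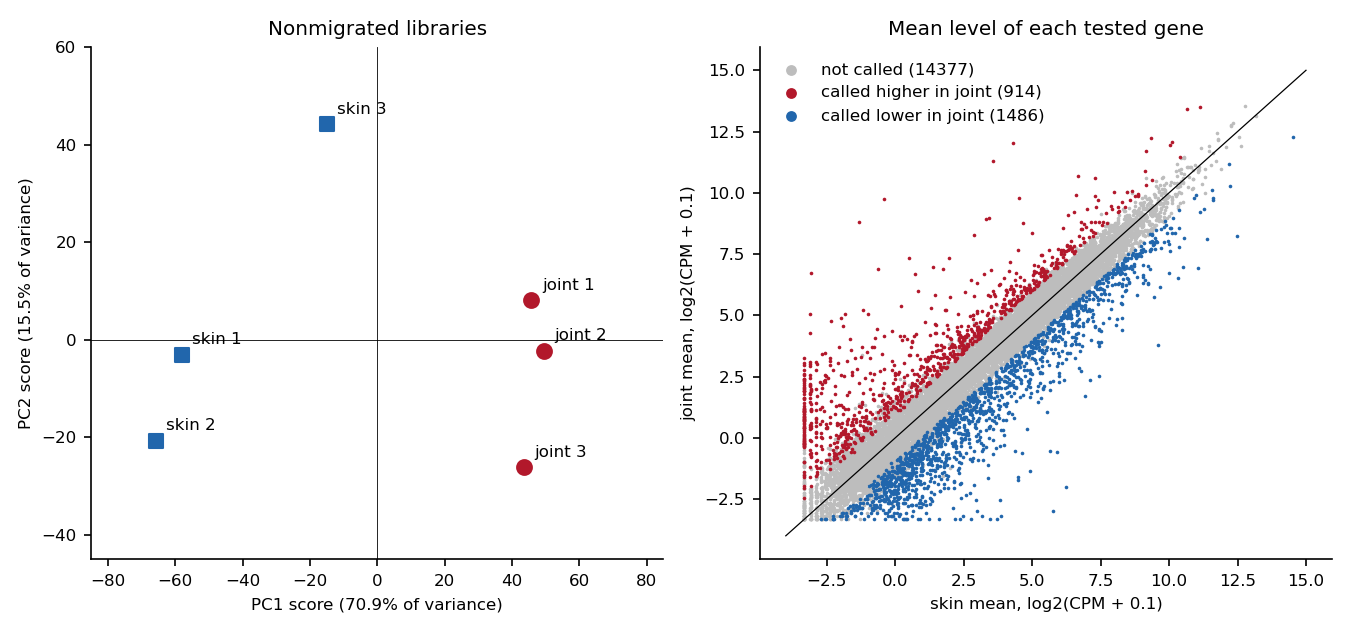
Left, scores of the 6 nonmigrated libraries (joint, red circles; skin, blue squares; numbers are replicates) on the first and second principal components of log2(CPM + 1), with 70.9% and 15.5% of the variance; skin replicate 3 lies apart, at -15.0 and 44.2. Right, each of the 16777 tested genes at its mean log2(CPM + 0.1) in skin (x axis) and joint (y axis), with the 914 called higher in joint in red, the 1486 called lower in blue and the line of equal level in black.

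Genes for neutrophil granule proteins were higher in joint cells by large factors. Of 14 tested genes for primary granules and granulocyte progenitors, 12 were higher in joint and none lower, and of 20 genes listed for secondary and tertiary granules 16 were higher and 1 lower. The list of 20 is not confined to granule proteins or to neutrophils. It includes Ltb4r1, a receptor gene, and Lyz2 and Cybb, which other myeloid cells express too. The median log2 fold changes were 5.56 (5.47 with 3 members at their detection bound) and 2.73. These 3 members, Elane and Ms4a3 among them, had at most 3 counts in any skin library, so they passed the filter on low counts through other groups. The counts were 12 and 0, and 16 and 1, without skin replicate 3, and 11 and 0, and 16 and 1, in the 6 libraries alone.

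Among primary granule genes, Mpo, which encodes myeloperoxidase, stood at 134, 637 and 556 CPM in the joint libraries and 0.343, 0.56 and 0 CPM in the skin libraries (log2 fold change 10.56 ± 0.94 SE, edgeR adjusted p = 5.2e-05). Elane, which encodes neutrophil elastase, had 29.1, 151 and 139.7 CPM in joint and a single count in all skin libraries together, a ratio of pooled counts of 5704 (95% counting interval 1024 to 225320). Prtn3, encoding proteinase 3, gave 39.8, 158 and 154 CPM in the joint libraries and 0.343, 0.672 and 0.64 CPM in the skin libraries (log2 fold change 7.71 ± 0.72 SE, edgeR adjusted p = 6.5e-05). Every joint library lay above every skin library for these 3 genes, and joint replicate 1 was the lowest of the joint libraries in each. Ms4a3, a marker of granulocyte and monocyte progenitors, had 10.7, 43 and 45.9 CPM in joint and 1 count in skin, a ratio of 1788 (95% counting interval 321 to 70631). Hp, which encodes haptoglobin, was higher (log2 fold change 2.44 ± 0.33 SE). Ctsc, whose protease activates the granule serine proteases, had 1628, 1786 and 1457 CPM in the joint libraries and 1001, 812 and 1972 CPM in the skin libraries and was not called.

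Among the later granule genes, Camp, which encodes the antimicrobial peptide cathelicidin, stood at 436, 866 and 1301 CPM in the joint libraries and 0.801, 0.952 and 0.197 CPM in the skin libraries (log2 fold change 10.41 ± 0.62 SE, edgeR adjusted p = 7.8e-06). Ngp, encoding neutrophilic granule protein, was at 2038, 3931 and 6741 CPM in the joint libraries and 21, 29.8 and 7.93 CPM in the skin libraries (log2 fold change 7.76 ± 0.70 SE, edgeR adjusted p = 5.6e-05). For Ltf, the gene of lactoferrin, the values were 1172, 2393 and 4067 CPM in the joint libraries and 9.9, 20.5 and 5.32 CPM in the skin libraries (log2 fold change 7.74 ± 0.84 SE, edgeR adjusted p = 0.00015). In all 3 genes joint replicate 3 was the highest library and every joint library lay above every skin library. Cd177, a neutrophil surface glycoprotein that binds PECAM1, was higher (log2 fold change 5.58 ± 0.37 SE), as were Itgb2l, a beta integrin gene (log2 fold change 6.97 ± 0.57 SE), and Ifitm6 (log2 fold change 5.41 ± 0.39 SE). Lyz2, the lysozyme gene of myeloid cells, Mmp9, gelatinase B of tertiary granules, and Cybb, the catalytic subunit of the phagocyte NADPH oxidase, were higher too, with log2 fold changes of 2.38, 2.31 and 1.76. The exception was Stfa2l1, a stefin gene, which was lower in joint at 18.5, 33.9 and 47.8 CPM in the joint libraries and 127, 238 and 77.2 CPM in the skin libraries (log2 fold change -2.14 ± 0.45 SE, edgeR adjusted p = 0.0055).

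Genes of mature neutrophils were called in both directions. Of 22 tested, 4 were higher and 7 lower, with a median of -0.54, and without skin replicate 3 the counts were 4 and 8. The 4 higher genes were S100a8 and S100a9, which encode the calprotectin subunits, Ly6g, the usual neutrophil surface marker, and Retnlg. S100a9 stood at 2349, 4632 and 7636 CPM in the joint libraries and 628, 836 and 476 CPM in the skin libraries (log2 fold change 2.91 ± 0.52 SE, edgeR adjusted p = 0.0022), and Ly6g at 22.9, 50.1 and 85.6 CPM in the joint libraries and 3.95, 5.66 and 2.17 CPM in the skin libraries (log2 fold change 3.76 ± 0.47 SE, edgeR adjusted p = 0.00035). Csf3r, the G-CSF receptor, and Cxcr2, the main chemokine receptor of mouse neutrophils, had log2 fold changes of -0.23 ± 0.46 SE and -0.09 ± 0.49 SE, were not called, and had overlapping ranges. Il1r2, a decoy receptor for interleukin 1, was lower in joint at 63, 80.4 and 140.3 CPM in the joint libraries and 592, 775 and 226 CPM in the skin libraries (log2 fold change -2.49 ± 0.45 SE, edgeR adjusted p = 0.0027). Cxcr1, another receptor for neutrophil chemokines, was lower (log2 fold change -3.06 ± 0.58 SE). Hdc, which makes histamine, was lower (log2 fold change -2.23 ± 0.69 SE), and the call was lost without joint replicate 1, joint replicate 2, skin replicate 1 or skin replicate 2 (edgeR adjusted p = 0.077 to 0.11). With 1 library left out, the 7 lower genes became 4 (without joint replicate 1, skin replicate 1 or skin replicate 2) or 3 (without joint replicate 2).

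Eosinophil, mast cell and basophil genes were mixed. Epx, the eosinophil peroxidase, had 2.26, 4.01 and 17.4 CPM in joint and 1 count in skin, a ratio of 436 (95% counting interval 78 to 17234), and Prg2, the major basic protein, was higher (log2 fold change 3.71 ± 0.80 SE). Siglecf, a surface marker of mature eosinophils, had 2.75, 4.68 and 9.18 CPM in the joint libraries and 3.03, 2.18 and 25.3 CPM in the skin libraries. Ccr3, their eotaxin receptor, had 1.3, 2.37 and 6.58 CPM in the joint libraries and 7.04, 2.97 and 40.6 CPM in the skin libraries. Neither was called, and skin replicate 3 was the highest library for both. Basophil protease genes went both ways. Prss34 was higher, at 10.7, 29.6 and 32.7 CPM in the joint libraries and 1.49, 6.1 and 3.1 CPM in the skin libraries (log2 fold change 2.77 ± 0.70 SE, edgeR adjusted p = 0.018), and was the 1 gene of the mast cell and basophil list that was. Mcpt8 was lower in joint at 4.73, 16.1 and 14.3 CPM in the joint libraries and 93.1, 184 and 46 CPM in the skin libraries (log2 fold change -3.20 ± 0.55 SE, edgeR adjusted p = 0.0018). Gata2, a transcription factor of mast cells and basophils, was lower (log2 fold change -3.70 ± 0.63 SE), as was Cyp11a1, a steroidogenic enzyme (log2 fold change -3.45 ± 0.60 SE). For Prss34, the call was lost without joint replicate 2, joint replicate 3 or skin replicate 1 (edgeR adjusted p = 0.052 to 0.065). Connective tissue mast cell proteases such as Mcpt4 stood at 45.2, 46.9 and 108 CPM in the joint libraries and 6.06, 2.3 and 105 CPM in the skin libraries, so that skin replicate 3 was level with the joint libraries and the other skin libraries were far below. Of 17 mast cell and basophil genes 1 was higher and 4 lower, against 7 and 4 without that library. The eosinophil list of 12 had 4 higher and 2 lower, and 6 and 2 without it.

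**Figure D2:**
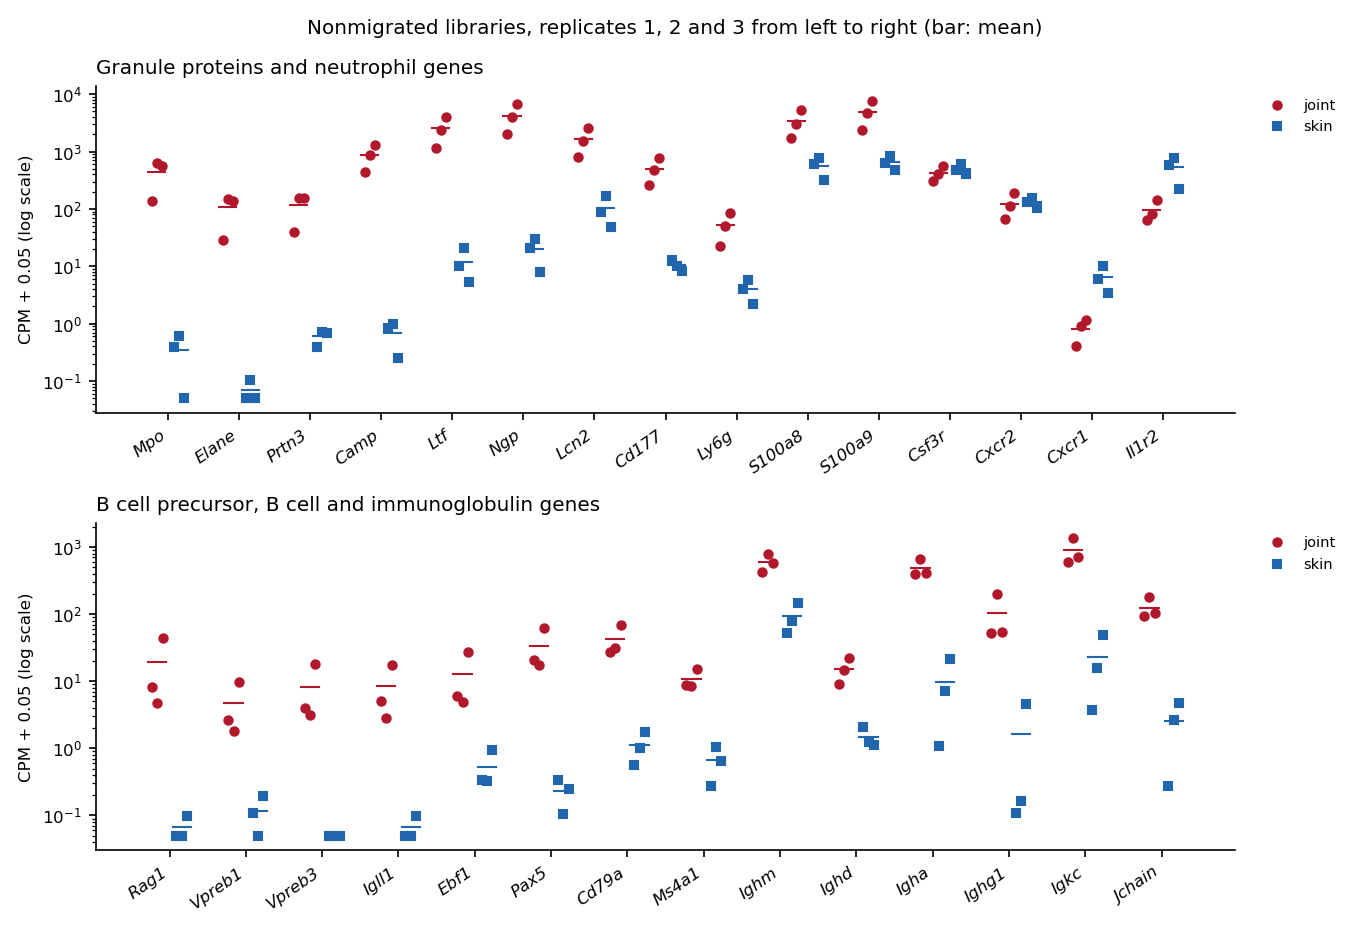
CPM plus 0.05, on a log scale, of granule and neutrophil genes (top) and B lineage genes (bottom) in each nonmigrated library; joint libraries are red circles and skin libraries blue squares, replicates 1 to 3 from left to right, with a bar at the mean. Granule protein genes such as Camp are separated by more than 10 on the log2 scale while Csf3r and Cxcr2 overlap, and joint replicate 3 is the highest library for Rag1 and Pax5.

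Most of the listed B lineage genes were higher in joint cells. Of 18 tested genes of B cell precursors, 13 were higher and 1 lower (median 2.87). Of the 18, 5 had at most 3 counts in any skin library, namely Rag1, Rag2, Vpreb1, Vpreb3 and Igll1. They passed the filter on low counts through other groups, so the filter itself favoured their calls, and the count and median include them. Of 20 B cell identity genes 13 were higher and none lower (1.75), and of 20 plasma cell and immunoglobulin constant genes 15 were higher and none lower (3.99). Without skin replicate 3 the counts were 15 and 1, 14 and 0, and 16 and 0, and in the 6 libraries alone 11 and 1, 9 and 0, and 14 and 0.

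Rag1, a subunit of the recombinase that assembles antigen receptor genes, had 8.16, 4.74 and 44.2 CPM in the joint libraries and 1 count in the skin libraries together, a ratio of 1064 (95% counting interval 191 to 42039). Vpreb3, a chaperone of the pre-B cell receptor, had 3.92, 3.1 and 17.8 CPM in joint and no count in skin, at least 51.2-fold higher against a floor of 3 counts per library. Vpreb1, a surrogate light chain gene, had 2.57, 1.77 and 9.73 CPM against 0.0572, 0 and 0.148 CPM. Joint replicate 3 held the highest value of each of these precursor genes, and no skin library came near the lowest joint library. Pax5, the transcription factor that commits cells to the B lineage, stood at 20.6, 17.5 and 61.6 CPM in the joint libraries and 0.286, 0.056 and 0.197 CPM in the skin libraries (log2 fold change 7.50 ± 0.72 SE, edgeR adjusted p = 8.0e-05). The 1 precursor gene that was lower in joint was Il7r, the interleukin 7 receptor chain that T cells and innate lymphoid cells also use, at 75.4, 79.7 and 106 CPM in the joint libraries and 689.6, 422 and 577 CPM in the skin libraries (log2 fold change -2.69 ± 0.20 SE, edgeR adjusted p = 2.9e-05).

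Immunoglobulin transcripts followed. Igkc, the kappa constant region, was at 591, 1352 and 722 CPM in the joint libraries and 3.66, 15.6 and 49.2 CPM in the skin libraries (log2 fold change 5.28 ± 0.80 SE, edgeR adjusted p = 0.0009), and Jchain, which joins IgA and IgM into polymers, at 95.2, 178 and 102 CPM in the joint libraries and 0.229, 2.58 and 4.68 CPM in the skin libraries (log2 fold change 5.62 ± 0.66 SE, edgeR adjusted p = 0.00024). In both genes, and in Igha (392, 654 and 408 CPM in the joint libraries and 1.03, 7.11 and 21.3 CPM in the skin libraries), joint replicate 2 was the highest library and skin replicate 3 the highest of the skin libraries. Iglc1 and Iglc2, lambda constant regions, were higher (log2 fold changes 7.91 ± 0.77 SE and 5.67 ± 0.45 SE). The summed level of all 218 immunoglobulin variable genes counted, of which 175 were tested, was 423, 873 and 476 CPM in joint and 2.52, 8.57 and 27.9 CPM in skin. Variable genes are near-identical copies among which reads can be split, so single members are uncertain, but Igkv8-30 and Ighv1-39 had no count in skin and were at least 57-fold and 13.2-fold higher. Some plasma cell genes did not pass the test. Xbp1, Prdm1 and Sdc1, which plasma cells share with other cells, had log2 fold changes of -0.13, -0.35 and -0.56 and were not called.

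Genes of dividing cells and of early progenitors were measured alongside. All 30 cell cycle genes had a positive fold change and 12 were called higher (median 0.99), but 6 without skin replicate 3, 4 in the 6 libraries alone, without joint replicate 2 or without joint replicate 3, 3 without skin replicate 1 and 19 without skin replicate 2. Cdc20, an activator of the anaphase-promoting complex, stood at 10.6, 19.8 and 23.6 CPM in the joint libraries and 6.63, 8.34 and 3.55 CPM in the skin libraries (log2 fold change 1.55 ± 0.34 SE, edgeR adjusted p = 0.0068), with all joint libraries above the skin libraries. Of 19 stem and progenitor genes 5 were higher and 4 lower, and 5 and 5 without skin replicate 3. Without skin replicate 1, 3 were higher. Myb, a transcription factor of proliferating progenitors, was among them (log2 fold change 2.37 ± 0.45 SE). Hoxa9, a homeobox gene of early progenitors, had 3 counts over the skin libraries and a ratio of pooled counts of 25.1 (95% counting interval 8.4 to 123). Lower were Procr, the protein C receptor (log2 fold change -3.52 ± 0.45 SE), and Flt3, a growth factor receptor of progenitors and dendritic cells (log2 fold change -1.22 ± 0.28 SE). Kit, the receptor of stem cell factor, was at 25.6, 37.7 and 44.5 CPM in the joint libraries and 29.97, 42.5 and 29.5 CPM in the skin libraries and was not called. Haemoglobin genes were at 0.952 to 21.3 CPM for Hbb-bs and Hba-a1 in the 6 libraries and were not called, while the red cell membrane gene Slc4a1 had 2.23, 1.01 and 0.801 CPM in joint against 1 count in all skin libraries. Car1, a carbonic anhydrase of red cell precursors, had 0.468, 1.52 and 1.63 CPM in joint and no count in skin. The part of these precursor genes in the other differences was not tested.

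Interferon-induced genes were lower in joint than in skin cells, in all 3 skin libraries. All 42 tested genes of the type I interferon response had a negative fold change, 28 were called lower and none higher (median -1.30), and 22 of the 28 passed an adjusted p under 0.001. Of 20 guanylate-binding proteins and immunity-related GTPases, which attack the vacuoles of intracellular pathogens, 18 were lower and none higher (median -1.80). Of 24 interferon gamma pathway genes 14 were lower and 1 higher (-1.25). The counts lower were 24, 16 and 13 without skin replicate 3, and 28, 16 and 12 in the 6 libraries alone. Without skin replicate 3, 1 of the GTPases was called higher.

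The summed level of the type I list was 3376, 3112 and 2852 CPM in the joint libraries and 8005, 8417 and 8615 CPM in the skin libraries, and that of the GTPases 1863, 1257 and 911 CPM in the joint libraries and 4590, 5486 and 4366 CPM in the skin libraries. In neither did the sites overlap, and for the type I list skin replicate 3 lay with the other skin libraries rather than towards the joint. Ifit1, which binds viral RNA without a proper cap, stood at 27.3, 19.97 and 16.1 CPM in the joint libraries and 159.9, 176 and 187 CPM in the skin libraries (log2 fold change -3.04 ± 0.17 SE, edgeR adjusted p = 5.7e-06). Rsad2, which encodes viperin, an enzyme that makes a chain-terminating nucleotide, was at 57.7, 50.01 and 52.9 CPM in the joint libraries and 746, 883 and 476 CPM in the skin libraries (log2 fold change -3.71 ± 0.23 SE, edgeR adjusted p = 7.8e-06). Of the signalling components, Stat2, part of the complex that binds the ISRE, was at 143, 125 and 117 CPM in the joint libraries and 399, 389.9 and 382 CPM in the skin libraries (log2 fold change -1.60 ± 0.11 SE, edgeR adjusted p = 2.2e-05). Irf7, which amplifies type I interferon production, was lower too (log2 fold change -1.34 ± 0.18 SE). Irf9 had a log2 fold change of -0.90 ± 0.10 SE, which missed the limit on the fold. Parp10, an ADP-ribosyltransferase, had the smallest p of the list (log2 fold change -2.41 ± 0.12 SE, edgeR adjusted p = 3.2e-06), but it overlaps Plec on the same strand. Reads that fell in more than 1 gene made up 1.84% to 2.05% of the 6 libraries and were set aside in counting.

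Socs1, the inhibitor that both interferon pathways induce and that blocks JAK kinases, stood at 21.4, 17.9 and 19.2 CPM in the joint libraries and 103, 114 and 90.2 CPM in the skin libraries (log2 fold change -2.39 ± 0.12 SE, edgeR adjusted p = 3.2e-06). Tgtp1, an immunity-related GTPase, was at 8.47, 7.61 and 5.52 CPM in the joint libraries and 87.5, 158 and 65.4 CPM in the skin libraries (log2 fold change -3.84 ± 0.36 SE, edgeR adjusted p = 6.5e-05). Gbp4, a guanylate-binding protein, was at 177, 102 and 79.1 CPM in the joint libraries and 683, 648 and 575 CPM in the skin libraries (log2 fold change -2.41 ± 0.24 SE, edgeR adjusted p = 8.9e-05). Igtp was lower too (log2 fold change -2.08 ± 0.20 SE). Tgtp1, Gbp4 and Igtp each overlap another gene on their strand and have near-identical relatives, so the split of reads within the family is uncertain. Cd274, which encodes the checkpoint ligand PD-L1, was at 309.5, 255 and 266 CPM in the joint libraries and 3035, 3442 and 1504 CPM in the skin libraries (log2 fold change -3.26 ± 0.38 SE, edgeR adjusted p = 0.00023). Gbp2b was the 1 GTPase with a positive fold change, 1.71 ± 0.79 SE, and it was not called, with joint replicate 1 highest at 32.3 CPM. Cxcl9, a ligand of CXCR3, was the 1 interferon gamma pathway gene higher in joint, at 85.8, 93.1 and 75.1 CPM in the joint libraries and 24.1, 25.5 and 57.1 CPM in the skin libraries (log2 fold change 1.25 ± 0.29 SE, edgeR adjusted p = 0.0091). Its relative Cxcl10, a ligand of the same receptor, was lower, at 84, 61.2 and 46.6 CPM in the joint libraries and 149.6, 119.7 and 131 CPM in the skin libraries (log2 fold change -1.06 ± 0.24 SE, edgeR adjusted p = 0.0089), and so was Cxcl11 (log2 fold change -2.97 ± 0.45 SE). For Cxcl10, the call was lost without joint replicate 3 or skin replicate 1 (edgeR adjusted p = 0.032 to 0.039, log2 fold change -0.97 to -0.87). Ifng itself stood at 9.33, 16 and 26.1 CPM in the joint libraries and 57.7, 91.9 and 14.1 CPM in the skin libraries (log2 fold change -1.67 ± 0.53 SE, edgeR adjusted p = 0.037), with skin replicate 3 inside the joint range, and the call was lost without joint replicate 1, joint replicate 2, skin replicate 1 or skin replicate 2 (edgeR adjusted p = 0.091 to 0.17).

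The promoter matches can be set beside these values. A RefSeq window from 250 bases before to 50 bases after the start was at hand for 11661 of the 16777 tested genes, and 467 of them (4.0%) held an ISRE core on either strand. The share was 2.88% of the genes higher in joint (15 of 521) and 7.68% of those lower (78 of 1016). Among genes lower at an adjusted p under 0.001 it was 34 of 242, and among lower genes outside the 3 interferon lists 5.73% (56 of 977). It was 56.7% of the type I list (17 of 30) and 91.7% of the GTPases (11 of 12), but 11.8% of the interferon gamma pathway list (2 of 17). The GAS core stood in 8.33% of all windows, in 7.68% of the higher and 8.76% of the lower genes, and in 58.3% of the GTPases (7 of 12), 29.4% of the interferon gamma pathway list (5 of 17) and 10.0% of the type I list (3 of 30). A match is a description of the letters and no test was made. Many lower genes of the interferon lists held neither core in the 150 bases before their starts. Among them were Stat2, Ifit2, Ifit3b, Ifi44, Irf7, Cmpk2, Herc6, Oasl1, Oasl2, Phf11d, Xaf1, Ifi47, Cxcl10 and Cd274. The promoters printed above were all taken from genes with a match.

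Antigen presentation genes moved less. Of 20 MHC class I presentation genes 19 had a negative fold change and 4 were lower (median -0.75), 5 without skin replicate 3, with H2-Q6, a nonclassical class I gene, at 242, 221 and 243 CPM in the joint libraries and 609.7, 780.1 and 648 CPM in the skin libraries (log2 fold change -1.53 ± 0.15 SE, edgeR adjusted p = 8.5e-05). B2m, the common light chain, had a log2 fold change of -0.73 ± 0.14 SE, within the limit on the fold. The H2-Q and H2-T genes are near-identical copies among which reads may be split. Of 15 MHC class II genes 1 was lower and none higher, but without skin replicate 3 there were 3 higher and 1 lower, and without joint replicate 2 none was called. A count of 1 in 15 is near the 8.86% of all tested genes that were lower. Cd74, the invariant chain, was at 13780, 13530 and 8480 CPM in the joint libraries and 6253, 4990 and 10010 CPM in the skin libraries and was not called, and the 1 lower gene was Cd80, a costimulatory ligand (log2 fold change -1.14 ± 0.30 SE), for which the call was lost without joint replicate 1, joint replicate 2, skin replicate 1 or skin replicate 2 (edgeR adjusted p = 0.054 to 0.062). Without joint replicate 3 the class I count was 2.

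**Figure D3:**
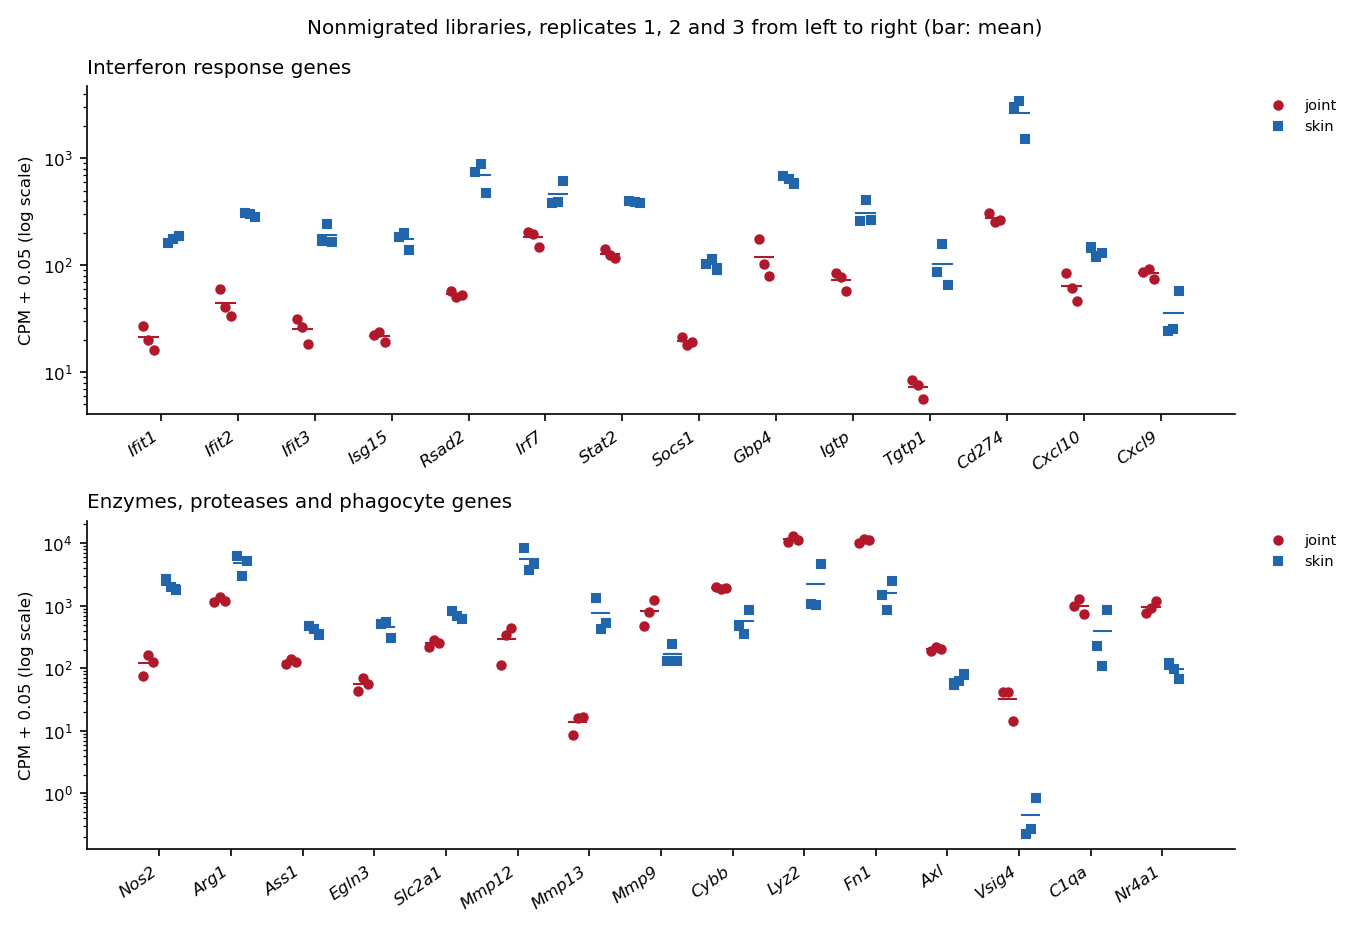
CPM plus 0.05, on a log scale, of interferon response genes (top) and of enzymes, proteases and phagocyte genes (bottom) in each nonmigrated library; joint libraries are red circles and skin libraries blue squares, replicates 1 to 3 from left to right, with a bar at the mean. Every interferon gene shown except Cxcl9 is lower in all joint libraries, and Nos2, Mmp12 and Mmp13 are lower by more than 4 on the log2 scale.

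Several enzymes of arginine use and 2 matrix metalloproteinases were lower in joint cells. Nos2, the inducible nitric oxide synthase of activated macrophages, stood at 75.2, 163 and 125 CPM in the joint libraries and 2666, 1986 and 1770 CPM in the skin libraries (log2 fold change -4.14 ± 0.31 SE, edgeR adjusted p = 2.9e-05). Arg1, which competes for the same substrate, was at 1147, 1401 and 1186 CPM in the joint libraries and 6206, 3024 and 5287 CPM in the skin libraries (log2 fold change -1.96 ± 0.46 SE, edgeR adjusted p = 0.0099), and Ass1, which regenerates arginine, was lower too (log2 fold change -1.71 ± 0.14 SE). Of 18 genes of nitric oxide, arginine, kynurenine and NADPH oxidase enzymes 6 were lower and 2 higher, the 2 being Cybb and Ncf1 of the NADPH oxidase. The 6 lower genes include Ido1 and Acod1, whose enzymes do not use arginine. The call of Ido1 was lost in all 6 fits that left out 1 library, and that of Acod1 without joint replicate 2 (edgeR adjusted p = 0.053). Mmp12, the macrophage elastase, was at 112, 341 and 441 CPM in the joint libraries and 8531, 3752 and 4740 CPM in the skin libraries (log2 fold change -4.25 ± 0.59 SE, edgeR adjusted p = 0.00059), and Mmp13, a collagenase, at 8.39, 16 and 16.4 CPM in the joint libraries and 1357, 426 and 527 CPM in the skin libraries (log2 fold change -5.83 ± 0.49 SE, edgeR adjusted p = 4.0e-05). For Nos2, Arg1, Mmp12 and Mmp13 every joint library lay below every skin library, whereas Mmp9, as given above, was higher in joint. The counts of this list of 18 enzyme genes were 6 and 2 without skin replicate 3, 4 and 2 without joint replicate 2, and 5 and 2 in the 6 libraries alone.

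Genes of glycolysis and the hypoxia response were lower as well. Of 28 tested, 27 had a negative fold change, 11 were lower and none higher (median -0.95), and 16 were lower without skin replicate 3. Egln3, an oxygen-sensing prolyl hydroxylase that HIF induces, stood at 43.2, 69.1 and 56.8 CPM in the joint libraries and 508, 552 and 307 CPM in the skin libraries (log2 fold change -3.02 ± 0.31 SE, edgeR adjusted p = 0.00011). Slc2a1, the glucose transporter GLUT1, was at 217, 288 and 255 CPM in the joint libraries and 818, 698 and 611 CPM in the skin libraries (log2 fold change -1.49 ± 0.16 SE, edgeR adjusted p = 0.00015), and Bnip3, a mitochondrial HIF target, was lower (log2 fold change -2.02 ± 0.16 SE). Pkm, the pyruvate kinase gene, was close to the limit on the fold (log2 fold change -1.03 ± 0.14 SE), and the call was lost without joint replicate 3, skin replicate 1 or skin replicate 2 (edgeR adjusted p = 0.0021 to 0.0027, log2 fold change -0.99 to -0.95).

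Lipid mediator genes differed in both directions. Ltc4s, which makes leukotriene C4, was at 48.6, 43.8 and 19.4 CPM in the joint libraries and 2.69, 3.08 and 4.88 CPM in the skin libraries (log2 fold change 3.39 ± 0.41 SE, edgeR adjusted p = 0.00029), and Lta4h of the leukotriene pathway and Ptgs1, cyclooxygenase 1, were also higher, with log2 fold changes of 1.36 and 2.29. Ptges, the inducible prostaglandin E synthase, was lower at 9.77, 13.6 and 18.7 CPM in the joint libraries and 126, 79.5 and 108 CPM in the skin libraries (log2 fold change -2.90 ± 0.30 SE, edgeR adjusted p = 0.00013). Adam8, a sheddase, was lower (log2 fold change -1.94 ± 0.22 SE), and over the list of 30 lipid mediator and protease genes 8 were higher and 5 lower, against 11 and 5 without skin replicate 3.

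Cytokine genes were more often lower in joint. Of 31 genes of the interleukin 1, interleukin 6 and TNF families 11 were lower and 1 higher, with 12 and 2 without skin replicate 3, and 7 lower without joint replicate 1, joint replicate 2 or skin replicate 2. Il1b had 1421, 1708 and 2394 CPM in the joint libraries and 2498, 2423 and 1504 CPM in the skin libraries and was not called, whereas Il1rn, the receptor antagonist, was lower (log2 fold change -2.41 ± 0.49 SE), as was Il1a (log2 fold change -2.24 ± 0.46 SE). Il6 stood at 11.6, 13.6 and 20.5 CPM in the joint libraries and 113, 149 and 20.05 CPM in the skin libraries (log2 fold change -2.63 ± 0.67 SE, edgeR adjusted p = 0.014), and skin replicate 3 was inside the joint range. For Il6, the call was lost without joint replicate 1, joint replicate 2 or skin replicate 2 (edgeR adjusted p = 0.053 to 0.055). Tnf was lower (log2 fold change -1.25 ± 0.35 SE), but the call was lost without joint replicate 1, joint replicate 2, skin replicate 1 or skin replicate 2 (edgeR adjusted p = 0.062 to 0.081). The higher gene was Tnfsf13b, which encodes the B cell survival factor BAFF, at 14.2, 15.3 and 15.2 CPM in the joint libraries and 5.49, 4.25 and 5.32 CPM in the skin libraries (log2 fold change 1.57 ± 0.22 SE, edgeR adjusted p = 0.00065).

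Of 32 chemokine genes 4 were higher and 11 lower, and of 30 chemokine receptor and related genes 2 were higher and 8 lower. Ccl3, a ligand of CCR1, stood at 91.3, 127 and 152 CPM in the joint libraries and 1795, 2043 and 542 CPM in the skin libraries (log2 fold change -3.56 ± 0.43 SE, edgeR adjusted p = 0.00029), with Ccl4 lower (log2 fold change -2.84 ± 0.34 SE). Its receptor gene Ccr1 was lower too, at 324, 347 and 306 CPM in the joint libraries and 1041, 956 and 881 CPM in the skin libraries (log2 fold change -1.56 ± 0.18 SE, edgeR adjusted p = 0.00025). Cxcl3, a ligand of CXCR2, was at 23.4, 82.4 and 106 CPM in the joint libraries and 1153, 638 and 652 CPM in the skin libraries (log2 fold change -3.53 ± 0.52 SE, edgeR adjusted p = 0.00084). Cxcl1, another ligand of CXCR2, was higher, at 27.1, 58.7 and 104 CPM in the joint libraries and 16.5, 8.73 and 10.1 CPM in the skin libraries (log2 fold change 2.43 ± 0.69 SE, edgeR adjusted p = 0.023). Cxcl2, a further one, had 567, 1113 and 1379 CPM in the joint libraries and 3158, 3104 and 1373 CPM in the skin libraries and was not called. Cxcl12, the retention factor of bone marrow, was higher (log2 fold change 2.85 ± 0.73 SE), as was Ackr3, a scavenger of CXCL12 (log2 fold change 1.97 ± 0.35 SE). The log2 fold change of its signalling receptor Cxcr4, 0.98 ± 0.24 SE, missed the limit on the fold. Cx3cr1, a receptor of monocytes and tissue macrophages, was higher, at 69.2, 110.3 and 80.5 CPM in the joint libraries and 19.7, 20.7 and 21.8 CPM in the skin libraries (log2 fold change 2.06 ± 0.17 SE, edgeR adjusted p = 3.3e-05). S1pr1, which guides lymphocytes out of tissues, was at 33.4, 35.1 and 40.1 CPM in the joint libraries and 43.8, 44.4 and 36.5 CPM in the skin libraries and was not called, and S1pr2 was lower (log2 fold change -1.31 ± 0.18 SE). For Cxcl1, the call was lost without joint replicate 3 or skin replicate 2 (edgeR adjusted p = 0.079), and for Cxcl12, the call was lost without skin replicate 1 (edgeR adjusted p = 0.051). Without skin replicate 3 the counts were 7 and 11 for ligands and 4 and 10 for receptors. The 4 ligands higher became 2 without joint replicate 3, skin replicate 1 or skin replicate 2, and the 11 lower became 7 without skin replicate 1.

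Of 34 integrin, selectin and junctional adhesion genes 9 were higher and 6 lower, and 10 and 6 without skin replicate 3. F11r, which encodes the junctional adhesion molecule JAM-A, stood at 183, 143 and 96.7 CPM in the joint libraries and 45.3, 56.4 and 54.4 CPM in the skin libraries (log2 fold change 1.44 ± 0.31 SE, edgeR adjusted p = 0.0066), and Jam2 was higher (log2 fold change 2.23 ± 0.53 SE). Itgae, the alpha chain of the integrin that binds E-cadherin, was lower at 6.96, 13.6 and 11.8 CPM in the joint libraries and 92.5, 118 and 41.6 CPM in the skin libraries (log2 fold change -2.96 ± 0.37 SE, edgeR adjusted p = 0.00034), and Cdh1, E-cadherin itself, was lower (log2 fold change -3.17 ± 0.29 SE). Itga6, a laminin-binding integrin chain, was higher (log2 fold change 1.08 ± 0.13 SE; the call was lost without joint replicate 3 (edgeR adjusted p = 0.00078, log2 fold change 0.95)), and Pecam1 was lower (log2 fold change -1.36 ± 0.17 SE). Itgb2, the common chain of the leukocyte beta 2 integrins, had 0.39 ± 0.15 SE and was not called.

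A set of leukocyte migration genes that was picked out on these same samples was counted as well. All 15 were higher in joint (median 2.31), also without skin replicate 3, without joint replicate 2 and in the 6 libraries alone. Since the set was chosen on these samples, its count is not independent evidence of its direction. Fn1, which encodes fibronectin, was at 10180, 11810 and 11120 CPM in the joint libraries and 1473, 872 and 2497 CPM in the skin libraries (log2 fold change 2.77 ± 0.45 SE, edgeR adjusted p = 0.0014). Anxa1, which encodes the lipid-binding protein annexin A1, was at 855, 1056 and 1205 CPM in the joint libraries and 289, 187 and 282 CPM in the skin libraries (log2 fold change 2.04 ± 0.20 SE, edgeR adjusted p = 9.3e-05), and Ceacam1 at 149.8, 157 and 214 CPM in the joint libraries and 37, 45.1 and 41 CPM in the skin libraries (log2 fold change 2.08 ± 0.20 SE, edgeR adjusted p = 7.7e-05). Angpt1 had 1.43, 2.72 and 2.92 CPM in joint and 7 counts over the skin libraries, a ratio of 18.4 (95% counting interval 8.79 to 46.2). The list includes S100a8, S100a9, Elane, Cd177, Mmp9 and Epx, which are granulocyte genes described above.

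The number of macrophage genes called depended on skin replicate 3. Of 25 tissue macrophage genes 5 were higher and 2 lower in joint (median 0.96), and without that library 16 were higher and 2 lower. Without joint replicate 2 there were 3 higher, and without skin replicate 1 there were 2. The summed level was 14090, 16560 and 11730 CPM in the joint libraries and 4917, 2651 and 12490 CPM in the skin libraries, so skin replicate 3 fell among the joint libraries. C1qa, a complement gene of tissue macrophages that was not called, was at 998, 1269 and 745 CPM in the joint libraries and 224, 110.1 and 871 CPM in the skin libraries (log2 fold change 1.32 ± 0.65 SE, edgeR adjusted p = 0.15). Vsig4, a complement receptor of resident macrophages, the joint lining's among them, was higher in every joint library, at 42, 42.1 and 14.4 CPM in the joint libraries and 0.172, 0.224 and 0.788 CPM in the skin libraries (log2 fold change 6.32 ± 0.60 SE, edgeR adjusted p = 0.00017). Axl, a receptor for apoptotic cells, was at 189.7, 219 and 203 CPM in the joint libraries and 55, 62.3 and 82 CPM in the skin libraries (log2 fold change 1.62 ± 0.14 SE, edgeR adjusted p = 5.1e-05), and the lipid-handling genes Trem2 (log2 fold change 1.63 ± 0.41 SE) and Apoe (log2 fold change 1.94 ± 0.57 SE) were higher. Timd4, a receptor for phosphatidylserine (log2 fold change -1.38 ± 0.35 SE), and Ccl24, an eotaxin (log2 fold change -2.84 ± 0.71 SE), were lower. For Apoe, the call was lost without joint replicate 2, skin replicate 1 or skin replicate 2 (edgeR adjusted p = 0.055 to 0.099). For Ccl24, the call was lost without joint replicate 1, joint replicate 2 or skin replicate 1 (edgeR adjusted p = 0.051 to 0.099). The calls of Trem2 (adjusted p = 0.062) and Timd4 (adjusted p = 0.064) were lost without skin replicate 1.

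Of 19 monocyte genes 4 were higher and 1 lower, and 7 and 0 without skin replicate 3. The higher genes were Fn1, Cx3cr1, Nr4a1 and Hp, and the lower gene was Ms4a4c (log2 fold change -1.28 ± 0.25 SE), which was -0.95 without that library. Ly6c2, the marker of classical monocytes, was at 296, 339 and 315 CPM in the joint libraries and 211, 327 and 331 CPM in the skin libraries and was not called. Complement and Fc receptor genes had 3 of 21 higher, and 9 higher without that library.

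T cell genes were lower in joint where they were called, though skin replicate 3 overlapped the joint libraries in many. Of 19 genes of the T cell receptor complex and its coreceptors, which all had a negative fold change, 11 were lower (median -1.13), 17 without skin replicate 3 and 2 in the 6 libraries alone. Leaving out another library gave 4 (joint replicate 1 or skin replicate 1), 6 (joint replicate 2) or 3 (skin replicate 2). Their summed level was 474, 737 and 894 CPM in the joint libraries and 1767, 2078 and 676 CPM in the skin libraries. Cd3g, a signalling chain of the receptor, was at 22.1, 39.6 and 50.4 CPM in the joint libraries and 179.6, 194 and 63 CPM in the skin libraries (log2 fold change -1.96 ± 0.38 SE, edgeR adjusted p = 0.0038), and skin replicate 3 stood nearest to the joint libraries. The constant genes Trac and Trbc2 had -0.54 ± 0.34 SE and -0.83 ± 0.35 SE and were not called.

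Of 13 gamma delta T cell and type 17 genes 6 were lower and none higher (median -1.50), 9 without skin replicate 3 and 3 in the 6 libraries alone or without joint replicate 1, joint replicate 2, skin replicate 1 or skin replicate 2. Trdc, the delta constant region, was at 9.15, 13.8 and 16.8 CPM in the joint libraries and 146, 149 and 48.1 CPM in the skin libraries (log2 fold change -3.11 ± 0.42 SE, edgeR adjusted p = 0.0005), and here all skin libraries lay above all joint libraries. Trdv4 was lower (log2 fold change -4.54 ± 0.55 SE). Tcrg-V5, whose chain is used by dendritic epidermal T cells, was at 0.104, 0.0316 and 0.0858 CPM in the joint libraries and 19.2, 17.9 and 5.12 CPM in the skin libraries (log2 fold change -7.46 ± 0.66 SE, edgeR adjusted p = 5.1e-05), and 2 of the joint libraries were at or below 3 counts. Il17a, made by many gamma delta cells, was at 1.95, 4.45 and 9.33 CPM in the joint libraries and 5.49, 8.96 and 1.38 CPM in the skin libraries and was not called.

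Foxp3, the transcription factor of regulatory T cells, was at 6.47, 11.2 and 10.2 CPM in the joint libraries and 48.3, 49.3 and 20.1 CPM in the skin libraries (log2 fold change -2.08 ± 0.32 SE, edgeR adjusted p = 0.001), although it overlaps Flicr. The type 2 cytokine genes Il4 (log2 fold change -3.84 ± 0.54 SE) and Il13 (log2 fold change -3.33 ± 0.72 SE) were lower, as was Tnfrsf9, the costimulator 4-1BB (log2 fold change -3.23 ± 0.40 SE). Gzmb, which encodes granzyme B, was at 19.8, 38.9 and 29.8 CPM in the joint libraries and 223, 351 and 94.8 CPM in the skin libraries (log2 fold change -2.92 ± 0.39 SE, edgeR adjusted p = 0.00049). Of 25 regulatory and helper T cell genes 11 were lower (14 without skin replicate 3), of 20 cytotoxic and natural killer genes 7 (10), of 13 innate lymphoid type 2 genes 4 (5), and none of these was higher. The 4 innate lymphoid genes were Il13, Gata3, Arg1 and Hlf, and each is shared with another list. Il13 and Gata3 are also helper T cell genes, Arg1 an arginine enzyme gene and Hlf a stem and progenitor gene. The call of Hlf was lost in 5 of the fits that left out 1 library. The cytotoxic count was 4 without skin replicate 2, and the innate lymphoid count 2 without joint replicate 1, joint replicate 2, skin replicate 1 or skin replicate 2.

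Genes of mature dendritic cells were mostly lower in joint. Of 19 genes of mature migratory dendritic cells 11 were lower and 2 higher, and the counts were 11 and 2 as well without skin replicate 3 and in the 6 libraries alone. Fscn1, which bundles actin in dendrites, stood at 15.9, 25.7 and 21.5 CPM in the joint libraries and 309.9, 509 and 110.2 CPM in the skin libraries (log2 fold change -3.88 ± 0.54 SE, edgeR adjusted p = 0.00056). Ccr7, the receptor that leads these cells to lymph nodes, was at 25.4, 43 and 46 CPM in the joint libraries and 262, 366 and 76 CPM in the skin libraries (log2 fold change -2.62 ± 0.51 SE, edgeR adjusted p = 0.0035), and Cacnb3 was lower (log2 fold change -3.56 ± 0.48 SE). Cd83 (log2 fold change 1.62 ± 0.36 SE) and Anxa3 (log2 fold change 1.17 ± 0.29 SE) were the 2 higher genes. Of 19 genes of conventional subsets 4 were lower, including Zbtb46, a transcription factor of conventional dendritic cells (log2 fold change -2.01 ± 0.32 SE), and Xcr1, the receptor of cross-presenting cells (log2 fold change -1.62 ± 0.34 SE), and 2, Irf4 and Klf4, were higher (3 higher and 4 lower without skin replicate 3). Plasmacytoid genes had 3 higher and 2 lower of 15, and 5 and 2 without skin replicate 3. The plasmacytoid surface lectin gene Siglech was at 9.69, 11.6 and 11.6 CPM in the joint libraries and 1.14, 4.87 and 15 CPM in the skin libraries and was not called.

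The skin libraries also carried genes of the epidermis. Cd207, which encodes langerin of Langerhans cells, was at 0.104, 0.0632 and 0.2 CPM in the joint libraries and 3.38, 4.42 and 1.28 CPM in the skin libraries (log2 fold change -4.57 ± 0.66 SE, edgeR adjusted p = 0.00072), and 6 of 14 Langerhans cell genes were lower and none higher, against 9 lower and 1 higher without skin replicate 3. Id2 and Runx3, which other leukocytes express too, were among the 6 lower genes. The summed level of the list overlapped between the sites, at 2944 to 3738 CPM in joint and 2887 to 3482 CPM in skin. Keratin genes, which leukocytes do not express, were present in skin: Krt14 had 53, 98.2 and 9.26 CPM against 3 counts in all joint libraries together, a ratio of 1806 (95% counting interval 617 to 8763) in favour of skin, and Krt1 had no count in joint. Krt5 was at 69, 143 and 11.6 CPM in skin, with skin replicate 3 the lowest. Of the 24 keratinocyte and melanocyte genes 12 passed the filter on low counts, 4 of them with at most 3 counts in any joint library, so that the filter itself favoured a difference and no count of calls is given. The summed level of the list was 16.9, 16.2 and 14.8 CPM in the joint libraries and 237, 423 and 53.2 CPM in the skin libraries. Lor, Flg and Mlana had 1 count or none in all 6 libraries together. The part of epidermal RNA in other differences was not tested.

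**Figure D4:**
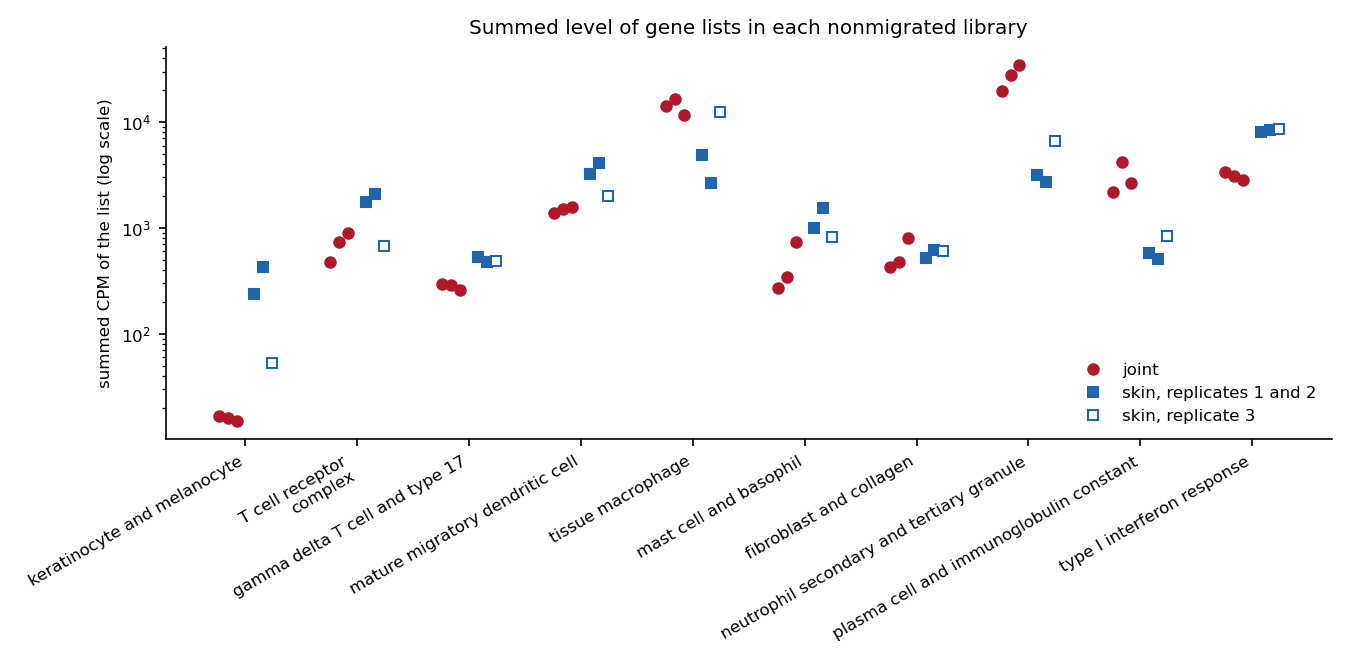
Summed CPM, on a log scale, of 10 gene lists in each nonmigrated library; joint libraries are red circles, skin replicates 1 and 2 filled blue squares and skin replicate 3 an open square. Skin replicate 3 lies nearer the joint libraries for keratinocyte, T cell receptor, migratory dendritic cell and macrophage genes, and with the other skin libraries for the type I interferon response.

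Genes of the connective tissues of a joint were called in both directions. Prg4, which encodes lubricin of synovial lining cells, was higher in joint, at 94.1, 69.7 and 73.2 CPM in the joint libraries and 5.15, 5.82 and 12.4 CPM in the skin libraries (log2 fold change 3.34 ± 0.31 SE, edgeR adjusted p = 6.5e-05). Of 22 fibroblast and collagen genes 3 were higher and 1 lower, but 10 were higher without skin replicate 3. Their summed level overlapped between the sites, at 430.0, 474 and 796 CPM in the joint libraries and 524, 621 and 604 CPM in the skin libraries. Col1a1 was at 27.4, 32.4 and 86.4 CPM in the joint libraries and 16.8, 18.1 and 46.4 CPM in the skin libraries and was not called. Of 22 cartilage, bone and muscle genes 13 passed the filter, 2 were higher, Alpl (log2 fold change 2.78 ± 0.64 SE) and Des (log2 fold change 1.75 ± 0.55 SE), and 3 lower (3 and 3 without skin replicate 3), including 2 cartilage genes, cartilage being part of the ear pinna too. For Des, the call was lost without joint replicate 2, joint replicate 3, skin replicate 1 or skin replicate 2 (edgeR adjusted p = 0.088 to 0.12). Col2a1, type II collagen, was at 0.182, 0.0632 and 0 CPM in the joint libraries and 2.46, 1.4 and 3.05 CPM in the skin libraries. Acan, aggrecan, was at 0.026, 0.0316 and 0.2 CPM in the joint libraries and 1.09, 1.68 and 1.97 CPM in the skin libraries. The bone genes Bglap, Bglap2, Ibsp and Sp7 did not pass the filter, with at most 18 counts in a library. Of 13 osteoclast genes 2 were higher and 2 lower, and 3 and 3 without skin replicate 3. Of 18 endothelial genes 3 were higher and 2 lower, and 6 and 3 without skin replicate 3, with Cdh5, the endothelial cadherin, at 3.59, 3.63 and 4.72 CPM in the joint libraries and 2.92, 1.23 and 6.01 CPM in the skin libraries and not called. Of 17 platelet genes 3 were higher and 6 lower (4 and 7 without skin replicate 3), and of 16 erythroid genes 3 were higher and 1 lower (5 and 2 without it, 1 and 0 without joint replicate 2). Over all tested genes 5.45% were higher and 8.86% lower, or 9.12% and 11.6% without skin replicate 3. The small counts of these lists are to be read beside those shares. The part of these cells in other differences was not tested.

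Some immediate early genes, which respond within minutes to signals and also to the handling of tissue, were higher in joint and others were not. Of 31 immediate early and heat shock genes 8 were higher and none lower (median 0.42), with the same counts without skin replicate 3 and in the 6 libraries alone. Nr4a1, an orphan nuclear receptor, was at 761, 930.2 and 1187 CPM in the joint libraries and 123, 99.3 and 68.3 CPM in the skin libraries (log2 fold change 3.31 ± 0.42 SE, edgeR adjusted p = 0.00037). Fosb, an AP-1 subunit, was at 1083, 1423 and 2181 CPM in the joint libraries and 212, 129 and 133 CPM in the skin libraries (log2 fold change 3.31 ± 0.39 SE, edgeR adjusted p = 0.00026), and Klf4, a zinc finger factor, at 825, 981 and 1026 CPM in the joint libraries and 161, 107 and 203 CPM in the skin libraries (log2 fold change 2.59 ± 0.29 SE, edgeR adjusted p = 0.00017). Fos was higher (log2 fold change 1.90 ± 0.19 SE). Egr1, a zinc finger factor, had 563, 832 and 977 CPM in the joint libraries and 1056, 917 and 492 CPM in the skin libraries. Jun, another AP-1 subunit, had 359, 605 and 800.2 CPM in the joint libraries and 942, 870.3 and 643 CPM in the skin libraries. The ranges overlapped for both, and neither was called. The heat shock genes Hspa1a and Hspa1b were highest in joint replicate 3 and, within skin, in replicate 1, and were not called. Dissociation of the tissues differed between the sites, as stated above, and its part in these genes was not tested.

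**Figure D5:**
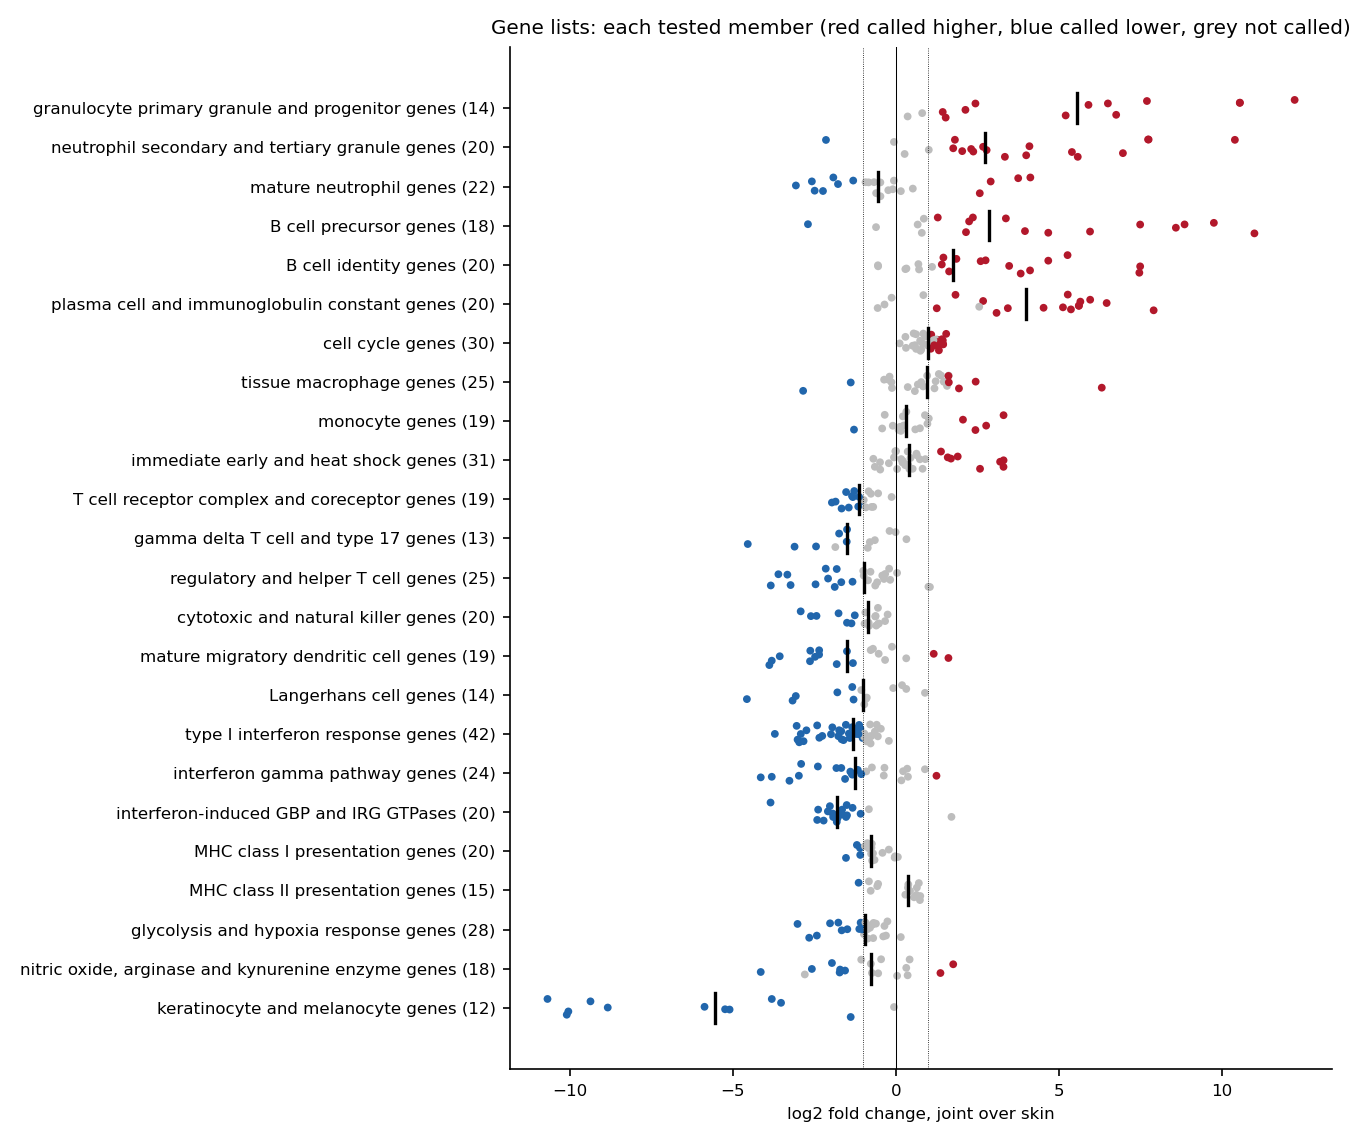
Log2 fold change, joint over skin (x axis), of every tested member of 24 gene lists (rows; number tested in brackets), red where called higher, blue where called lower and grey where not called, with a black bar at the median and dotted lines at the limit on the fold. Granule and B lineage lists lie to the right (medians 5.56, 2.73, 2.87, 1.75 and 3.99) and interferon lists to the left (-1.30, -1.25 and -1.80), while the median of all tested genes is 0.0112. The primary granule and B cell precursor lists hold 3 and 5 members with at most 3 counts in any skin library.

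Fewer genes differed between the sites in migrated than in nonmigrated cells. In the leukocytes that had reached the draining lymph node, 94 genes of the 16777 tested were higher and 97 lower from joint than from skin by the same limits. The test of the difference itself, an interaction term in the fit of all 12 libraries, called 364 genes in which the difference was more positive in nonmigrated cells and 665 in which it was more negative. Of the 914 genes higher in nonmigrated joint cells 287 (31.4%) were among the first, and of the 1486 lower 569 (38.3%) were among the second. None was called in the opposite direction. The interaction term contains the same difference in nonmigrated cells by which these genes were picked. That choice favoured calls in the same direction, so these shares are no separate evidence of it.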

How the data were processed

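RNA-Seq was made from pools of sorted leukocytes. The authors trimmed reads with Trim Galore, aligned them to mm10 with TopHat2 and counted them per gene of Ensembl release 87 with HTSeq at its default settings, and deposited raw counts for 18 libraries. These defaults count by strand and set aside reads in more than 1 gene, but whether the libraries kept strand was not tested, so antisense pairs are uncertain. All 18 columns were used, 5 summary lines were removed, and 49326 of 49585 genes matched GENCODE M21. Genes were tested with the quasi-likelihood F test of edgeR 4.0.16 in R 4.3.3 (TMM, minimum count 10, Benjamini-Hochberg) on the 12 libraries of inflamed mice, by group, with 8 residual degrees of freedom. SE is the absolute log2 fold change over the square root of F. CPM is per 1000000 of the TMM-scaled total. Intervals of ratios of pooled counts are exact and cover counting error only.

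The gene lists and members were chosen with earlier results of these data known. Genes were named by rule: in each direction the 10 with the smallest p and the 8 with the largest fold whose libraries did not overlap, and of each of 44 lists the 4 members with the smallest p, the most abundant, up to 3 called against the median, and those at or under 3 counts. Other genes in the text (Cxcr2, Csf3r, F11r, Il6, Mmp12 and the like) were chosen after their values were seen. Promoters came from RefSeq tables (GRCm38.p6) and were matched by symbol. The fit was checked on simulated data with 200 changed genes. Alternatives were other samples, DESeq2 1.42.0, scalings, filters, thinning, blocks and thresholds. Some items are not reported here.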

Additional observations from a re-analysis of the deposited data

Results flagged for a closer look

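The difference between the sites was itself tested against that in migrated leukocytes, those that had left the tissue for its draining lymph node. In 287 genes higher and 569 genes lower in nonmigrated joint cells, the signed joint to skin difference lay further in that direction in nonmigrated than in migrated cells by the edgeR interaction term. The genes were picked by a difference that is part of this term, which favoured that direction. This set also holds genes whose difference in migrated cells was not zero. In some its sign in migrated cells was opposite, such as Cxcl9, with a log2 fold change of 1.25 in nonmigrated and -1.56 in migrated cells. Socs1 had a log2 fold change, joint over skin, of -2.39 in nonmigrated and 0.12 in migrated cells (interaction edgeR adjusted p = 8.0e-05). Il7r had -2.69 and 0.01 (adjusted p = 0.00067), Igkc 5.28 and -0.83 (adjusted p = 0.0056), and Itgb2l 6.97 and -0.84 (adjusted p = 0.00043). Nos2 had -4.14 and -4.87, and its interaction was not called (adjusted p = 0.47). These genes were chosen after their values were seen.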

How the results depend on the processing

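Under 19 other fits and 2 other thresholds, no named gene that was called changed direction, while some genes that were not called, such as Ptprc, Maf and Thbs1, had log2 fold changes of either sign. The 914 genes higher in joint became 192 at an adjusted p under 0.001, 2086 with no limit on the fold, 1590 in the 5 libraries without skin replicate 3 and 1383 without skin replicate 3 and joint replicate 2, and leaving out 1 library at a time gave 601 (without skin replicate 1) to 1636 (without skin replicate 3). The 1486 lower became 319 and 2541 at these thresholds and 1070 to 2084 with 1 library left out. The 1029 genes whose site difference differed from that in migrated cells became 20 at an adjusted p under 0.001, 1756 by DESeq2, 1664 with all 18 libraries, 2055 without skin replicate 3 and joint replicate 2, and 582 to 2610 with 1 library left out: 582 without skin replicate 1, 595 without joint replicate 2, 640 without skin replicate 2 and 2610 without skin replicate 3. The first principal component took 48.7% with genes scaled to unit variance and 72.7% with log2(CPM + 5), against 70.9%. The causes of these shifts were not tested, apart from the stricter or wider thresholds themselves. The 2 alternatives without skin replicate 3 that are not single omissions were added after seeing the data. Of 191 named genes that were called, 144 stayed called under all 19 other fits, and 109 at an adjusted p under 0.001. The share of lower genes with an ISRE or GAS core was also taken at that threshold (34 of 242 for the ISRE and 11.2% for the GAS) and over the bases before the start alone (7.19% and 7.78%), against 7.68% and 8.76%. Joint and skin nonmigrated libraries of the same replicate number did not vary together, with correlations of deviations of -0.013, -0.098 and -0.32. Such correlations were not taken between nonmigrated and migrated libraries of a site, so a pairing there stays open. A replicate block shared by all groups called 916 genes higher and 1369 lower (interaction 836), while a block within each site called 1052 and 1353 (826). Genes under 3 counts in a library, worth 0.148 to 0.172 CPM in skin, lie beyond the depth.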
